A study of Drosophila melanogaster with 18 samples.

Results

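The uninduced Zld line was compared with wild type cells that had also received no copper, so that the only labelled difference was the line. Its members are 4 of the 18 libraries of the series, chosen by their labels: 2 of S2-Zld cells without CuSO4 and 2 of S2-WT cells without CuSO4. The comparison asks how much of the factor's transcript the line already made before copper was given, and which other genes stood at a different level in it.

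S2 cells are a Drosophila line of embryonic origin with macrophage-like traits, and derived lines in the series carry a gene for Zelda (Zld), for Grainy head (Grh) or for Twist (Twi), transcription factors that are switched on by CuSO4 in the medium. PolyA RNA was sequenced. Besides the 2 groups above, the account uses S2-Zld cells labelled 1000 mM CuSO4, S2-WT cells labelled 1000 µM CuSO4 and S2-Grh cells without CuSO4. S2-WT cells with 40 and 100 µM belong to the wild type range. S2-Grh cells labelled 100 mM and S2-WT cells with 100 µM enter the fit of 14 libraries. S2-Twi cells with 40 µM are shown for zld and enter the fit of all 18 libraries. All groups given copper were taken 48 h after it. Each of these groups has 2 libraries. The labels print the dose of the Zld line in mM and that of wild type in µM, and the numbers were matched as printed. All cells grew at 27 °C. The sources used here give neither the promoter of the transgene nor whether a line is 1 clone or a pool, so the Zld line may differ from wild type in more than the transgene. They also do not say whether the 2 replicates of a group were separate cultures, and p-values therefore measure only the spread between these samples.

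Zelda is a zinc finger protein supplied by the mother that opens chromatin at early embryonic enhancers and is needed for the first wave of zygotic transcription in the fly. It is called a pioneer factor because it can bind its sites while they are wrapped in nucleosomes. S2 cells resemble blood cells (plasmatocytes), which arise later and in which the early patterning genes are mostly silent.

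The uninduced Zld libraries held 10459648 and 16857970 counted reads, against 18510129 and 17220934 in untreated wild type, within a range of 10459648 to 28575923 over the series. Levels are given as CPM, counts scaled to a library of 1000000, and 3 counts in 1 library correspond to 0.287 and 0.178 CPM in the Zld line and to 0.162 and 0.174 CPM in wild type. Replicates of the uninduced Zld line differed more from each other than those of the other groups in the fit. Chi-square of their counts, divided by its degrees of freedom, was 14.5, against 4.57 in the induced Zld line, 3.72 in untreated wild type and 2.01 in wild type with 1000 µM. Log2 changes are the Zld line over wild type, ± SE, from edgeR fitted on the 8 libraries of the Zld table, and a gene is called at a Benjamini-Hochberg adjusted p under 0.05.

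The uninduced Zld line already carried zld transcripts far above wild type. The gene zld (FBgn0259789, dm6, X:19766465-19783548) had 214 and 306 CPM in the uninduced Zld line, against 16.0 and 1.51 CPM in untreated wild type. Both Zld libraries lay above all 8 wild type libraries of the series, and WT replicate 1 was well above WT replicate 2. The change was 4.97 ± 0.71 (edgeR adjusted p = 0.0111). With only the 4 libraries compared in the fit the adjusted p was 0.0917, and with the replicate number as a block as well it was 0.285, so zld was called only where the spread was estimated over more than these 4 libraries. Without WT replicate 1, the library with 16.0 CPM, the change was 7.5 and called, and without WT replicate 2 it was 4.13 and called.

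**Figure D1:**
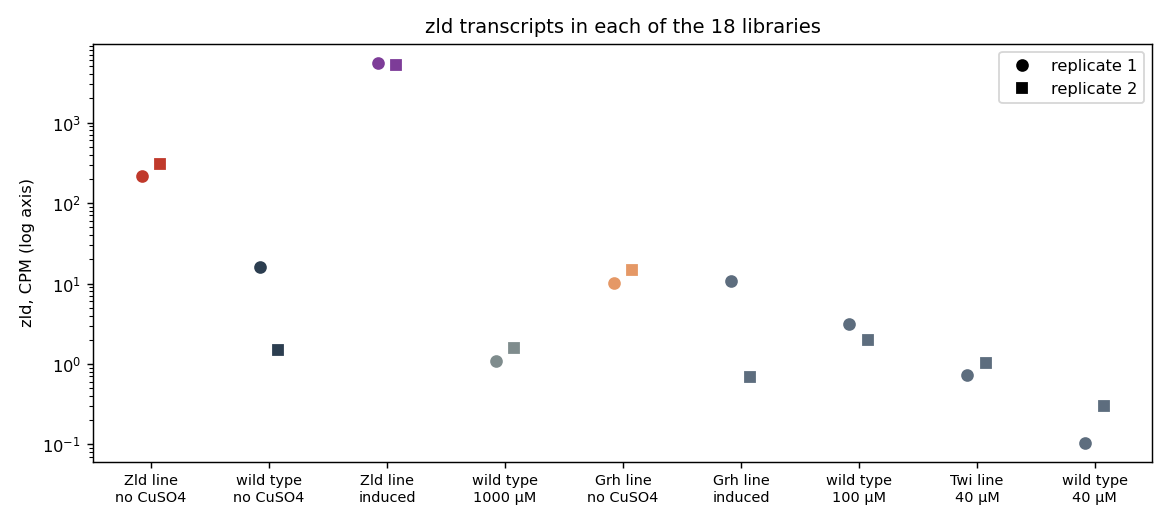
Level of zld in CPM (log axis) in each of the 18 libraries, by group, with a circle for replicate 1 and a square for replicate 2. The uninduced Zld line sits at 214 and 306 CPM, between the induced Zld line (5503 and 5211 CPM) and the libraries of the other cells, which stay at or below 16.0 CPM.

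Copper took the transcript much further. The induced Zld line had 5503 and 5211 CPM of zld, against 1.09 and 1.57 CPM in wild type with 1000 µM. Over the uninduced line, induction raised zld by 4.38 on the log2 scale. The Grh line, which carries another transgene, had 10.1 and 14.5 CPM of zld without copper. Against it the uninduced Zld line was higher by 4.38 ± 0.69 (edgeR adjusted p = 0.00408, 14 libraries in the fit). Traces of other factors were uneven: grh had 2.01 and 0.119 CPM in the uninduced Zld line, against 0.864 and 0.348 CPM in untreated wild type, and twi had 0.669 and 0.0593 CPM in the Zld line, against 1.19 and 0.116 CPM in wild type. In both groups replicate 1 was the higher one for grh and twi. The source of these reads was not tested.

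With zld counted, 927 genes were higher and 910 lower in the uninduced Zld line among 8881 tested, which is 10.4% and 10.2% of the genes and 20.7% together, and 3011 genes (33.9%) had an unadjusted p under 0.05. Changes were mostly small: 113 genes (1.27%) were at least 2-fold higher and 123 (1.38%) at least 2-fold lower. Leaving out 1 library gave 99 such increases and 116 decreases without replicate 1 of the Zld line, and 184 and 127 without its replicate 2. There were 76 increases and 71 decreases without WT replicate 1, and 78 and 93 without WT replicate 2. The median over all tested genes was -0.01. The 1837 calls became 782 without WT replicate 1 and 818 without WT replicate 2, and were 1838 and 2729 without replicate 1 and replicate 2 of the Zld line.

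The called genes were also set against the range of wild type cells across copper doses. Of the 927 genes called higher, 137 (14.8%) lay above all 8 wild type libraries of the series in both Zld libraries, and of the 910 called lower, 262 (28.8%) lay below them. Among all tested genes the shares were 2.51% above and 9.78% below. The 2 untreated wild type libraries belong to both the calls and the range. The range uses CPM scaled by library size alone, while the calls also use normalization factors (TMM). These were 0.995 and 0.959 in the uninduced Zld libraries, against 1.049 and 1.029 in untreated wild type. CPM therefore sets the Zld libraries lower against untreated wild type than the fit does, which favours the shares below.

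The largest increases beside zld were in genes of very different roles. Oatp33Ea (2L:12441401-12445924), a member of the organic anion transporter family, had 23.4 and 20.0 CPM in the uninduced Zld line, against 0.27 and 0.465 CPM in untreated wild type. The change was 5.95 ± 0.23 (edgeR adjusted p = 6.50e-08). The gene also stood high with copper, at 17.8 and 18.9 CPM in the induced Zld line, against 0.911 and 0.542 CPM in wild type with 1000 µM. It was higher still in the uninduced Grh line, at 52.4 and 51.6 CPM, and the Zld line was lower than the Grh line by 1.28 on the log2 scale (edgeR adjusted p = 8.45e-09).

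Sgs1 (2L:4937409-4941423), a glue protein of the larval salivary gland, had 4.21 and 5.04 CPM in the uninduced Zld line, against 0.432 and 0.232 CPM in untreated wild type, and its change was 3.86 ± 0.36 (edgeR adjusted p = 2.59e-05). Wild type with 40 µM had 62.2 and 73.6 CPM of Sgs1, so the Zld line stayed within the span of the wild type libraries. TpnC4 (2R:5503437-5507866), a troponin C of muscle, had 6.79 and 5.28 CPM in the Zld line, against 1.30 and 1.45 CPM in wild type (2.20 ± 0.25). Cep290 (3L:843926-851080), which encodes a protein of the ciliary transition zone, had 6.79 and 6.35 CPM in the Zld line, against 1.57 and 1.57 CPM in wild type (2.15 ± 0.20). The rule that chose these genes admitted only those without overlap between the groups.

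Tep1 (2L:15888640-15893811), a complement-like thioester protein of blood cells, had 13.7 and 12 CPM in the uninduced Zld line, against 3.57 and 3.14 CPM in untreated wild type (2.01 ± 0.16). Wild type with 100 µM reached 30.1 and 29.1 CPM of Tep1, above the Zld line. The secreted inhibitor of the EGF receptor argos (aos, 3L:16470386-16483650) had 45.4 and 45.5 CPM in the Zld line, against 10.9 and 13.5 CPM in wild type (1.99 ± 0.13). It did not pass the test with copper, where it had 21.0 and 24.5 CPM in the induced Zld line, against 25.6 and 20.9 CPM in wild type with 1000 µM (adjusted p = 0.716).

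The other increases among the 12 largest were zye (2.39 ± 0.25), CG40160 (2.1 ± 0.15), ChT (1.92 ± 0.26), CG34437 (1.80 ± 0.23) and CBP, a sarcoplasmic calcium-binding protein (1.70 ± 0.31). ChT shares 69.5% of its exonic bases with CG46318, and the library kit keeps no strand, so its reads cannot be assigned to 1 gene. Of the 12 genes, 5 lay above all 8 wild type libraries in both Zld libraries: Oatp33Ea, zld, Cep290, CG40160 and CG34437. Leaving out each of the 4 libraries in turn, all 12 kept their direction. The smallest of these changes was 1.37, for CBP without replicate 2 of the Zld line. Fits without a Zld library take the spread from the other groups, whose replicates differed less, so calls in them do not show stability.

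The largest decrease was in CG8620 (3L:7158099-7158874), which the annotation leaves without a name. It had 2.01 and 2.37 CPM in the uninduced Zld line, against 20.3 and 18.3 CPM in untreated wild type, and its change was -3.01 ± 0.19 (edgeR adjusted p = 1.38e-06). With copper it stood at 47.1 and 38.3 CPM in the induced Zld line, against 55.0 and 48.3 CPM in wild type with 1000 µM, and did not pass the test (adjusted p = 0.240). The interaction of line and copper, the log2 change with copper minus that without, was 2.85 for CG8620.

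CG10205 (2R:14832832-14833951) had 0.287 and 0.593 CPM in the uninduced Zld line, against 4.0 and 3.95 CPM in untreated wild type (-2.96 ± 0.38). Here the difference also stood with copper, with 0.247 and 0.0735 CPM in the induced Zld line, against 3.46 and 4.76 CPM in wild type with 1000 µM (-4.45 ± 0.46, edgeR adjusted p = 1.83e-05). The planar polarity gene serrano (sano, 2R:18878391-18959500) had 0.287 and 0.415 CPM in the uninduced Zld line, against 2.92 and 3.08 CPM in untreated wild type (-2.92 ± 0.42). For these 3 genes, too, the rule required groups without overlap.

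The ligand of the JAK/STAT pathway upd2 (X:18240654-18243284) had 1.05 and 1.42 CPM in the uninduced Zld line, against 5.67 and 7.08 CPM in untreated wild type (-2.22 ± 0.28, edgeR adjusted p = 0.000235). Its relative upd3 (X:18277233-18284596) had 4.21 and 6.47 CPM in the Zld line, against 14.3 and 14 CPM in wild type (-1.26 ± 0.18, edgeR adjusted p = 0.000563). With copper neither passed the test: upd2 had 5.74 and 3.97 CPM in the induced Zld line, against 5.34 and 4.82 CPM in wild type with 1000 µM, and the adjusted p was 0.876 for upd2 and 0.923 for upd3. The scavenger receptor gene NimC2 had 0.765 and 1.31 CPM in the uninduced Zld line, against 5.40 and 4.94 CPM in untreated wild type (-2.15 ± 0.38), and 18.7% of its exonic bases are shared with rk.

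The remaining decreases among the 12 largest were CG14196 (-2.61 ± 0.31), vilya, a protein of meiotic recombination (-2.61 ± 0.39), obst-J, which encodes a chitin-binding protein (-2.38 ± 0.32), CG13024 (-2.32 ± 0.64), CG1503 (-2.28 ± 0.48), CG14982 (-2.15 ± 0.35) and CG43336 (-2.07 ± 0.29). The genes sano, vilya, CG1503 and CG14982 lay below all 8 wild type libraries. CG13024 was the exception in stability: its call was lost without any 1 of the 4 libraries, with changes of -2.90 to -1.72. The other 11 kept their direction when each library was left out in turn, with changes of -1.73 or below.

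**Figure D2:**
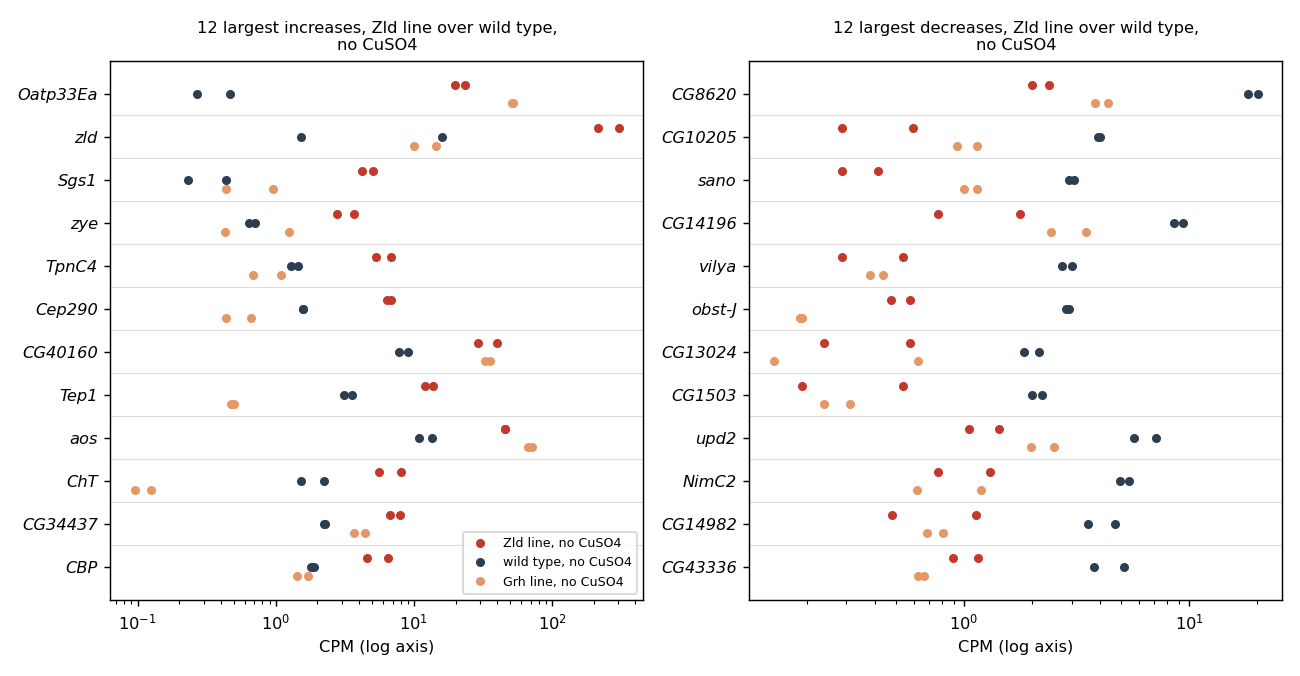
CPM (log axis) of the 12 largest increases (left) and the 12 largest decreases (right) of the uninduced Zld line (red, 2 libraries), untreated wild type (dark blue, 2 libraries) and the uninduced Grh line (orange, 2 libraries). The red points stand clear of the dark blue ones for every gene, as the rule that chose them requires, while for CG40160 the orange points lie among the red ones.

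The uninduced Grh line, another transgenic line without copper, was set beside the Zld line. Both lines share the untreated wild type libraries as their control, so the direct test between the lines is given. It called 1088 of 9221 genes higher in the Zld line (11.8%) and 877 lower (9.51%). That balance depended on the libraries in the fit: with only the 4 libraries compared 545 were higher and 213 lower, without replicate 1 of the Zld line 850 and 411, and without replicate 2 of the Zld line 1317 and 1436. Of the 12 largest increases over wild type, 9 were also higher than in the Grh line: zld, Sgs1, zye, TpnC4, Cep290, Tep1, ChT, CG34437 and CBP. The changes against the Grh line were 4.69 ± 0.21 for Tep1 and 3.51 ± 0.26 for Cep290, which had 0.498 and 0.475 CPM and 0.436 and 0.665 CPM there. CG40160 had 39.9 and 29.1 CPM in the Zld line, against 35.8 and 32.6 CPM in the Grh line (-0.02 ± 0.11, adjusted p = 0.939). Without replicate 1 of the Grh line or replicate 2 of the Zld line, CG34437 was no longer called.

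Of the 12 largest decreases, only CG8620 (-0.86 ± 0.23), sano (-1.54 ± 0.49) and CG14196 (-1.09 ± 0.38) were called lower in the Zld line than in the Grh line, at edgeR adjusted p of 0.0135, 0.0316 and 0.0497. The call of sano was lost without any 1 of the 4 libraries, and those of CG8620 and CG14196 without replicate 1 of either line. For vilya the Zld line had 0.287 and 0.534 CPM, against 0.436 and 0.380 CPM in the Grh line, and for CG14982 it had 0.478 and 1.13 CPM, against 0.685 and 0.808 CPM. A p that misses the threshold does not show that the lines were alike. Because the 2 Zld libraries enter both comparisons, these counts are descriptions.

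Of the genes that stood highest over wild type with copper, all but zld and zye missed the threshold without it. The rule took the 12 largest increases of the induced Zld line over wild type with 1000 µM, where 1785 genes were higher (20.1%), 557 of them at least 2-fold (6.27%), and 1638 lower (18.4%), 140 of them at least 2-fold (1.58%), 38.5% in all. The gene zye (3L:20413604-20424309) had 2.77 and 3.68 CPM in the uninduced Zld line, against 0.702 and 0.639 CPM in untreated wild type (2.39 ± 0.25, edgeR adjusted p = 6.24e-05). With copper it had 543 and 508 CPM in the induced Zld line, against 3.40 and 3.79 CPM in wild type with 1000 µM (7.29 ± 0.10).

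The other 10 were not called without copper. Dtg, a target of the morphogen Dpp, had 0.574 and 0.297 CPM in the uninduced Zld line, against 0.594 and 0.232 CPM in untreated wild type (0.04 ± 0.65, adjusted p = 0.975). In the induced line it had 105 and 95.8 CPM, against 0.243 and 0.722 CPM in wild type with 1000 µM. The gene babos had 2.49 and 2.19 CPM in the uninduced Zld line, against 2.0 and 1.63 CPM in untreated wild type (0.44 ± 0.20, adjusted p = 0.213), and 95.8 and 100 CPM in the induced line. Its 2 uninduced Zld libraries stood above all 8 wild type libraries of the series.

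The odorant-binding protein gene Obp99a had 1.63 and 1.42 CPM in the uninduced Zld line, against 1.51 and 2.79 CPM in untreated wild type (-0.41 ± 0.36, adjusted p = 0.458), and 129 and 156 CPM in the induced line. For Phk-3 the change without copper was 0.62 ± 0.74, for the metalloprotease gene tolloid (tld) 0.82 ± 0.65, for the cytochrome P450 gene Cyp305a1 -0.10 ± 0.78 and for CG7320 0.23 ± 1.04. With such low counts, smaller shifts were not detectable at this depth.

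The sex determination gene sisA, one of the earliest zygotic genes, had 3 counts in the uninduced Zld line, against 0 in untreated wild type, and with copper 287 counts in the induced line, against 1 in wild type with 1000 µM. The ratio of CPM with copper was 319 (95% Clopper-Pearson interval 56.7 to 12628). The amino acid transporter gene NAAT1 had 7 counts in the uninduced Zld line, against 3 in untreated wild type, a ratio of 3.05 (0.697 to 18.3). CG13872 had 0 counts in the uninduced Zld line, against 2 in untreated wild type. With copper CG13872 had 156 counts in the induced line, against 0 in wild type with 1000 µM, at least 57.7-fold higher when 3 counts over the 2 wild type libraries are taken as the floor.

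**Figure D3:**
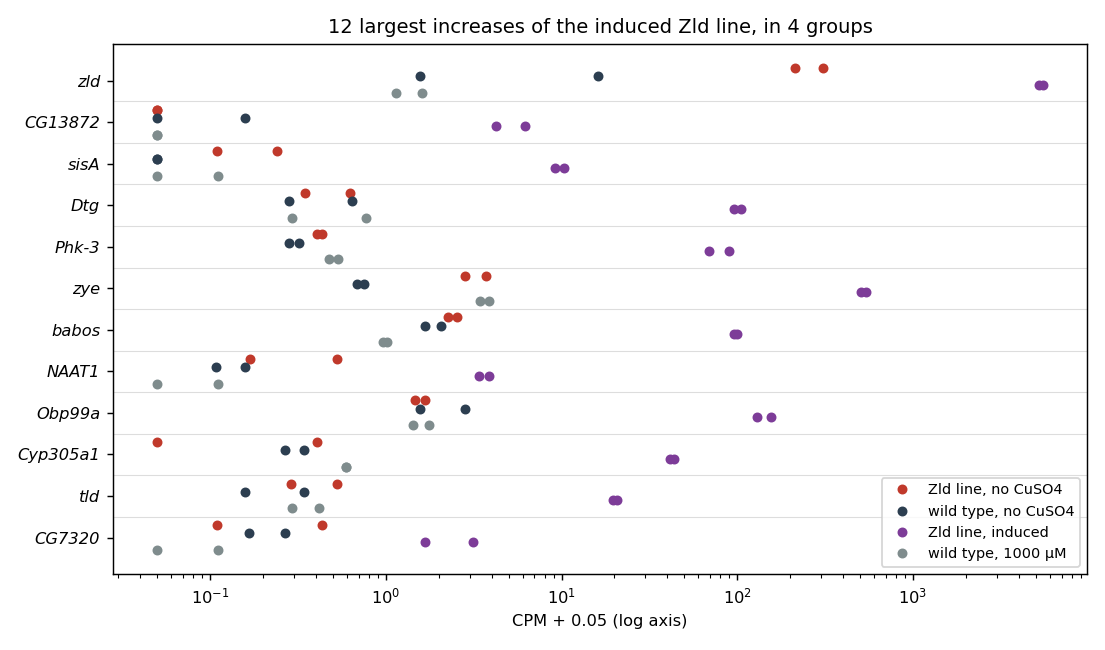
CPM + 0.05 (log axis) of the 12 largest increases of the induced Zld line, in the uninduced Zld line (red), untreated wild type (dark blue), the induced Zld line (purple) and wild type with 1000 µM CuSO4 (grey), 2 libraries each. The red points of zld and zye stand clear of the dark blue ones, while for Dtg, Obp99a, Cyp305a1 and tld they overlap or nearly so.

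The comparisons without and with copper contrast different libraries, but they share the line and the fit. Each gene's estimate of the spread is common to both, so their calls are not separate tests and are set beside each other as descriptions. Of the 927 genes higher without copper, 546 (58.9%) were higher with it too, which is 30.6% of the 1785 higher with copper, and 63 were lower. Among all tested genes 20.1% were higher with copper and 18.4% lower. Of the 910 genes lower without copper, 499 (54.8%) were lower with it, 30.5% of that list, and 48 were higher. Among genes changed at least 2-fold, 53 of 113 increases (46.9%) and 35 of 123 decreases (28.5%) passed the same rule with copper, 9.52% and 25% of those lists, where 6.27% and 1.58% of all tested genes passed that rule with copper. Without WT replicate 1 the list of genes higher without copper held 401 members, of which 276 were higher with copper, and without replicate 2 of the Zld line it held 1367, of which 582 were.

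The interaction of line and copper, which tests whether the difference itself changed, called 1110 of the 8881 genes (12.5%). The cell adhesion gene roughest (rst, X:2950399-2973834) is an example that rose in both states. It had 8.41 and 10.1 CPM in the uninduced Zld line, against 3.94 and 3.60 CPM in untreated wild type (1.41 ± 0.17, edgeR adjusted p = 0.000143). With copper it had 101 and 114 CPM in the induced Zld line, against 2.79 and 3.73 CPM in wild type with 1000 µM (5.14 ± 0.13). The interaction was 3.73 ± 0.24. The uninduced Grh line had 3.17 and 4.32 CPM of rst, and the Zld line was above it by 1.30 ± 0.17 (edgeR adjusted p = 3.18e-05).

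Early zygotic patterning and cellularization genes hold the best known targets of Zelda in the embryo, and few of them were called without copper. Of 33 tested members of 59, 3 were higher and 3 lower, close to the 10.4% and 10.2% of all genes, and the median was -0.10 against -0.01 over all genes. With copper 11 of the same 33 were higher and 4 lower, with a median of 1.22, where 20.1% of all genes were higher and 18.4% lower. The expression filter used all 8 libraries of the fit, so members expressed only in the induced Zld line, such as sisA, entered the 33. The count higher and the median with copper therefore follow in part from the filter and are descriptions. The members called higher without copper were already well expressed: fog, which drives gastrulation movements (171 and 151 CPM in the Zld line, against 136 and 132 CPM in wild type, 0.35 ± 0.06), the pair-rule gene hry (0.30 ± 0.07) and Sxl (0.24 ± 0.07). The calls of hry and Sxl were lost without either wild type library, that of Sxl also without replicate 1 of the Zld line.

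Some patterning genes were lower in the uninduced Zld line and higher in the induced one. The morphogen gene dpp (2L:2428372-2459823) had 0.669 and 0.237 CPM in the uninduced Zld line, against 1.84 and 1.05 CPM in untreated wild type (-1.72 ± 0.52, edgeR adjusted p = 0.0353). With copper dpp had 5.93 and 4.49 CPM in the induced Zld line, against 0.364 and 0.542 CPM in wild type with 1000 µM (3.61 ± 0.40), and the interaction was 5.32 ± 0.65 (edgeR adjusted p = 0.000250). The call without copper was lost without WT replicate 1 or replicate 2 of the Zld line.

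Wnt6 (2L:7333714-7352542), another secreted signal, had 0.860 and 0.653 CPM in the uninduced Zld line, against 1.84 and 1.74 CPM in untreated wild type (-1.18 ± 0.32, edgeR adjusted p = 0.0229). With copper Wnt6 had 9.32 and 9.78 CPM in the induced Zld line, against 1.46 and 1.02 CPM in wild type with 1000 µM (3.04 ± 0.22), with an interaction of 4.22 ± 0.39. The call of Wnt6 without copper was lost without either wild type library or without replicate 2 of the Zld line. The Brd family gene Tom (-1.27 ± 0.36) and the cellularization gene slam (-1.10 ± 0.25) were lower too; Tom lost its call without either wild type library or without replicate 2 of the Zld line, and slam without WT replicate 1.

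The list of Dpp, Wnt, EGF and FGF signalling, which also holds dpp, Wnt6 and aos, had 11 of 39 tested members higher (28.2%) and 4 lower (10.3%), beside 10.4% and 10.2% of all genes. Its median length was 4013 bases. Over genes of 3000 to 4000 bases the shares were 12.7% and 9.74%, and over those of 4000 to 6000 bases 19.4% and 8.92%. Members higher included the Wnt receptor gene fz (0.79 ± 0.19), the FGF gene bnl (0.72 ± 0.13) and the Sprouty gene sty (0.65 ± 0.08). The receptor kinase gene Alk was lower (-0.57 ± 0.12). Between 4 and 13 members were higher when 1 library was left out; fz lost its call without either wild type library and Alk without WT replicate 2. Of 15 tested Notch and Enhancer of split genes, only H was higher and none was lower, with 2 at an unadjusted p under 0.05 and none called by DESeq2. Among 7 zygotic activators and pioneer factors, zld was the only call.

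Axon guidance and adhesion genes had 9 of 21 tested members higher (42.9%) and 2 lower (9.52%), against 10.4% and 10.2% of all genes, with a median of 0.19. Over genes of 6000 to 8000 bases, where the list's median length of 6791 bases lies, the shares were 22.2% and 8.35%. The Toll family gene 18w had 61.8 and 55.8 CPM in the uninduced Zld line, against 37.1 and 35.2 CPM in untreated wild type (0.79 ± 0.07, edgeR adjusted p = 1.65e-05). The netrin receptor gene fra had 196 and 202 CPM in the Zld line, against 124 and 133 CPM in wild type (0.72 ± 0.08). Dscam1, a cell surface protein of neurons and blood cells, had 585 and 573 CPM in the Zld line, against 384 and 402 CPM in wild type (0.65 ± 0.05). These 3 genes were also higher than in the uninduced Grh line, by 0.75 ± 0.09, 0.44 ± 0.08 and 0.70 ± 0.06. The same 2 Zld libraries enter both comparisons.

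In the same list robo1, a receptor for Slit, was higher by 0.57 ± 0.07 and PlexB, a semaphorin receptor, by 0.64 ± 0.18. The call of PlexB was lost without either wild type library. The secreted guidance gene NetA (X:14604012-14653928) had 3.82 and 3.03 CPM in the uninduced Zld line, against 12.7 and 12.6 CPM in untreated wild type (-1.82 ± 0.18), and 1.85 and 2.65 CPM in the induced Zld line, against 9.78 and 11.6 CPM in wild type with 1000 µM. In the uninduced Grh line NetA had 2.93 and 3.56 CPM, so both uninduced lines stood below wild type. The receptor gene robo2 was lower by 0.39 on the log2 scale, and 41% of its exonic bases are shared with another gene. Between 5 and 10 members of the list were higher without 1 library.

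Mesoderm and muscle genes had 6 of 24 tested members higher (25%) and 2 lower (8.33%), with a median of 0.26. Over all genes the shares were 10.4% and 10.2%. Over genes of 4000 to 6000 bases, where the list's median length of 5342.5 bases lies, they were 19.4% and 8.92%. Besides rst the members higher were Mlc2, a myosin light chain (13.8 and 12.8 CPM in the Zld line, against 7.24 and 7.20 CPM in wild type, 0.96 ± 0.14), and the RNA-binding gene how (0.56 ± 0.09), with mbc, zfh1 and Tm1. The myoblast fusion gene rols was lower (-0.84 ± 0.12), as was NetA. The myosin heavy chain gene Mhc, a marker of differentiated muscle, had 1.43 and 0.0593 CPM in the Zld line, against 0.648 and 0.290 CPM in wild type, and the muscle actin gene Act57B had 2.1 and 0.534 CPM in the Zld line, against 2.05 and 0.465 CPM in wild type. For both markers replicate 1 was the higher library in each group, and the groups overlapped.

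Transcripts that mark plasmatocytes were present in both groups, at very different levels. The lowest were NimC1, with 1.24 and 1.31 CPM in the Zld line, against 0.972 and 0.813 CPM in wild type, and He. For He the values were 2.01 and 1.13 CPM in the Zld line, against 4.16 and 2.90 CPM in wild type. The blood cell GATA factor gene srp had 476 and 511 CPM in the uninduced Zld line, against 459 and 495 CPM in untreated wild type, and Pxn, peroxidasin, had 2389 and 2234 CPM in the Zld line, against 2822 and 2835 CPM in wild type. The sum over 9 plasmatocyte markers was 4666 and 4117 CPM in the Zld line, against 5576 and 5531 CPM in wild type, so the groups did not overlap. Pxn and Nplp2 (1344 and 959 CPM in the Zld line, against 1829 and 1727 CPM in wild type) made up most of it. Neither was called (edgeR adjusted p = 0.160 and 0.0906). Of the 9, srp, crq and NimC1 had changes above 0 and the others below. In bulk RNA, fewer cells of a type and less RNA per cell cannot be told apart. The defining markers atilla of lamellocytes and lz of crystal cells had 0 counts in all 4 libraries, which allows up to 0.287 CPM in the shallowest, and Fbp1 and Lsp2 of fat body had at most 0.116 CPM. Other markers of these classes were present: the prophenoloxidase gene PPO3 of lamellocytes had 25.5 and 31.2 CPM in the Zld line, against 39.5 and 39.8 CPM in wild type, the integrin gene ItgaPS4 had 5.74 and 5.81 CPM in the Zld line, against 5.89 and 4.99 CPM in wild type, and PPO2 of crystal cells had 2.68 and 1.90 CPM in the Zld line, against 3.40 and 2.26 CPM in wild type. The sum over the 3 lamellocyte markers was 31.3 and 37.0 CPM in the Zld line, against 45.4 and 44.8 CPM in wild type, without overlap, and that over the 3 crystal cell markers 2.68 and 1.90 CPM in the Zld line, against 3.78 and 2.38 CPM in wild type.

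Within the plasmatocyte and basement membrane list, 6 of 20 tested members were higher (30%) and 5 lower (25%), beside 10.4% and 10.2% of all genes. Its tested members had a median length of 5873.5 bases. Of all tested genes of 4000 to 6000 bases, 19.4% were higher and 8.92% lower. Higher were the laminins LanA (3785 and 3709 CPM in the Zld line, against 2800 and 2963 CPM in wild type, 0.47 ± 0.07), LanB2 (0.30 ± 0.06) and LanB1, the collagen gene vkg (0.43 ± 0.12) and the perlecan gene trol (0.38 ± 0.07). Of the other basement membrane genes, Col4a1 (0.30), Ppn (0.29), SPARC (-0.14) and Ndg (1.21) were not called. The apoptotic cell receptor gene crq was higher too (0.30 ± 0.06). Lower were the phagocytosis receptors eater (-0.39 ± 0.10), Sr-CI (-0.41 ± 0.10) and drpr (-0.37 ± 0.05), with He (-1.16 ± 0.33) and Hml, hemolectin (-0.28 ± 0.09). None of these decreases was called against the uninduced Grh line. There 10 of the 20 members were higher in the Zld line and 0 lower, beside 11.8% and 9.51% of all genes. A missed threshold does not show that the lines were alike.

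With copper the same list had 2 members higher and 13 lower, where 20.1% and 18.4% of all genes were called in each direction. In no fit with 1 library left out did LanA, drpr and crq lose their call without copper. Fits without a Zld library take the spread from the other groups, which varied less, so keeping a call there shows little. The call was lost for LanB2, Sr-CI and trol without WT replicate 1, vkg, He and eater without WT replicate 1 or replicate 2 of the Zld line, and Hml without WT replicate 2 or either Zld library. Between 2 and 7 members were higher and 2 to 4 lower when 1 library was left out. Without copper, lamellocyte and crystal cell genes had 1 of 7 tested members higher, msn, and 2 lower, PPO3 and cher. Over all genes the shares without copper were 10.4% higher and 10.2% lower.

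Over all tested genes 10.4% were higher and 10.2% lower. Among Toll, Imd and JAK/STAT genes, 1 of 24 tested was higher and 2 were lower, upd2 and upd3. The higher member was the Toll ligand gene spz (369 and 333 CPM in the Zld line, against 290 and 294 CPM in wild type, 0.35 ± 0.05). Among 7 antimicrobial peptides and immune effectors Tep1 was higher, while AttB, at 0 and 0.0593 CPM in the Zld line, against 0.486 and 0.406 CPM in wild type, and Tep4 (-0.35 ± 0.08) were lower. The call of AttB was lost without replicate 1 of the Zld line or either wild type library, and that of Tep4 without any 1 of the 4.

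Oxidative stress and glutathione genes had 2 of 29 tested members higher and 8 lower, with a median of -0.18, where 10.4% and 10.2% of all genes were called. Catalase (Cat) had 308 and 293 CPM in the uninduced Zld line, against 456 and 441 CPM in untreated wild type (-0.49 ± 0.05, edgeR adjusted p = 5.56e-05). GstD3 (-0.44 ± 0.07), GstS1 (-0.69 ± 0.18) and Sod1, a superoxide dismutase (-0.28 ± 0.05), were lower as well. The stress regulator gene cnc was higher (135 and 134 CPM in the Zld line, against 106 and 98.3 CPM in wild type, 0.48 ± 0.07), and so was GstE6 (0.25 ± 0.07). GstS1 lost its call without WT replicate 2 or replicate 2 of the Zld line, and GstE6 without either wild type library. In the uninduced Grh line Cat had 307 and 305 CPM, and the direct test between the lines gave -0.04 ± 0.05 (adjusted p = 0.648).

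The summed level of the metal response genes was 295 and 301 CPM in the uninduced Zld libraries, between the 292 and 369 CPM of untreated wild type, whereas wild type with 1000 µM had 7929 and 8740 CPM. Of 11 tested members none was higher by edgeR and ATP7, a copper exporter, was lower (-0.19 ± 0.06, edgeR adjusted p = 0.0477); 5 had an unadjusted p under 0.05 and DESeq2 called 0. The metallothionein gene MtnA had 68.7 and 74.3 CPM in the uninduced Zld line, against 126 and 52.2 CPM in untreated wild type (-0.22 ± 0.38, adjusted p = 0.722), and 8285 and 7453 CPM in wild type with 1000 µM. MtnB had 0 counts in both uninduced Zld libraries. ATP7 lost its call without either wild type library or without replicate 1 of the Zld line.

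Heat shock and chaperone genes had 5 of 18 tested members higher (27.8%) and 2 lower (11.1%), beside the 10.4% and 10.2% of all genes. The endoplasmic reticulum chaperone gene Hsc70-3 had 2049 and 2238 CPM in the uninduced Zld line, against 1437 and 1530 CPM in untreated wild type (0.62 ± 0.08, edgeR adjusted p = 0.000236). Hsp68 (0.52 ± 0.11) and Hsp70Bb (0.63 ± 0.16) were higher; the Hsp70 genes are near-identical copies whose reads cannot be split with certainty. The small heat shock genes Hsp23 (-0.49 ± 0.08) and Hsp67Ba (-1.53 ± 0.42) were lower, the second with 75.9% of its exonic bases shared with an antisense RNA gene. Hsp70Bb and Hsp67Ba lost their call without any 1 of the 4 libraries, and Hsp68 without WT replicate 1 or replicate 2 of the Zld line.

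In the ecdysone response, 3 of 17 tested members were higher (17.6%) and 4 lower (23.5%), where all genes had 10.4% and 10.2%. Genes of 4000 to 6000 bases, where the list's median length of 5306 bases lies, had 19.4% and 8.92%. ImpL2, an insulin-binding secreted protein, had 182 and 149 CPM in the uninduced Zld line, against 68.2 and 76.0 CPM in untreated wild type (1.28 ± 0.15), with 61.9% of its exonic bases shared with CG46460. The receptor gene EcR was higher (0.38 ± 0.08), and the transporter gene E23 (-1.34 ± 0.31), MsrA (-0.91 ± 0.08) and Eip78C (-0.88 ± 0.19) were lower. EcR and Eip78C lost their call without WT replicate 1, and E23 without WT replicate 1 or replicate 2 of the Zld line.

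For cytosolic ribosomal proteins the number called without copper depended on single libraries. With copper 74 of 84 tested members were higher and 0 lower, where 20.1% and 18.4% of all genes were called. Against the uninduced Grh line 4 were higher and 5 lower, beside 11.8% and 9.51% of all genes. Their summed level was 229445 to 230229 CPM in that line, 205180 to 228665 CPM in the uninduced Zld line and 195244 to 202308 CPM in untreated wild type. Without copper 29 members were higher than in wild type (34.5%) and 0 lower by edgeR, beside 10.4% and 10.2% of all genes. The median was 0.21, with 48 at an unadjusted p under 0.05 and 44 called by DESeq2. There were 10 and 12 higher without WT replicate 1 and WT replicate 2, and 70 higher without replicate 1 of the Zld line. Without replicate 2 of the Zld line 26 were higher and 7 lower.

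The remaining lists are read against the 10.4% of all genes that were higher and the 10.2% that were lower. DNA replication and cell cycle had 1 of 31 tested members higher, Blm, and 2 lower, Cdk1 and RnrL, and apoptosis and DNA damage 2 of 15 higher, among them the ATM kinase gene tefu (0.64 ± 0.06), and 3 lower, p53, Diap2 and Drice. Cuticle, chitin and wound response had 2 of 14 higher, sty and msn, and 1 lower, mmy. Epithelial polarity had 1 of 15 higher, jar, and 3 lower, led by the apical determinant crb (25.8 and 28.8 CPM in the Zld line, against 52.7 and 53.4 CPM in wild type, -0.85 ± 0.09). Septate junction genes had 1 of 16 higher and 3 lower, led by the adhesion gene Nrg (6.88 and 7.18 CPM in the Zld line, against 14.5 and 13.8 CPM in wild type, -0.91 ± 0.12).

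For Nrg the uninduced Grh line lay on the other side of wild type, at 23.2 and 20.3 CPM, and the Zld line was below it by 1.62 on the log2 scale (-1.62 ± 0.11). Germline and ovarian soma genes had 2 of 18 higher, AGO3 and shu, and 2 lower, aub and fs(1)Yb, fat body genes 1 of 8 in each direction, and dosage compensation genes 0 of 7 higher and 2 lower, mof and mle, where 3 had an unadjusted p under 0.05 and DESeq2 called 1. Neuron and neuroblast genes had 0 of 9 called by edgeR, 3 at an unadjusted p under 0.05 and 0 by DESeq2; elav had 22.1 and 22.1 CPM in the Zld line, against 19.8 and 19.7 CPM in wild type. Of 12 genes of the Y chromosome, 11 had no counts in the 4 libraries and the 1 tested was not called.

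**Figure D4:**
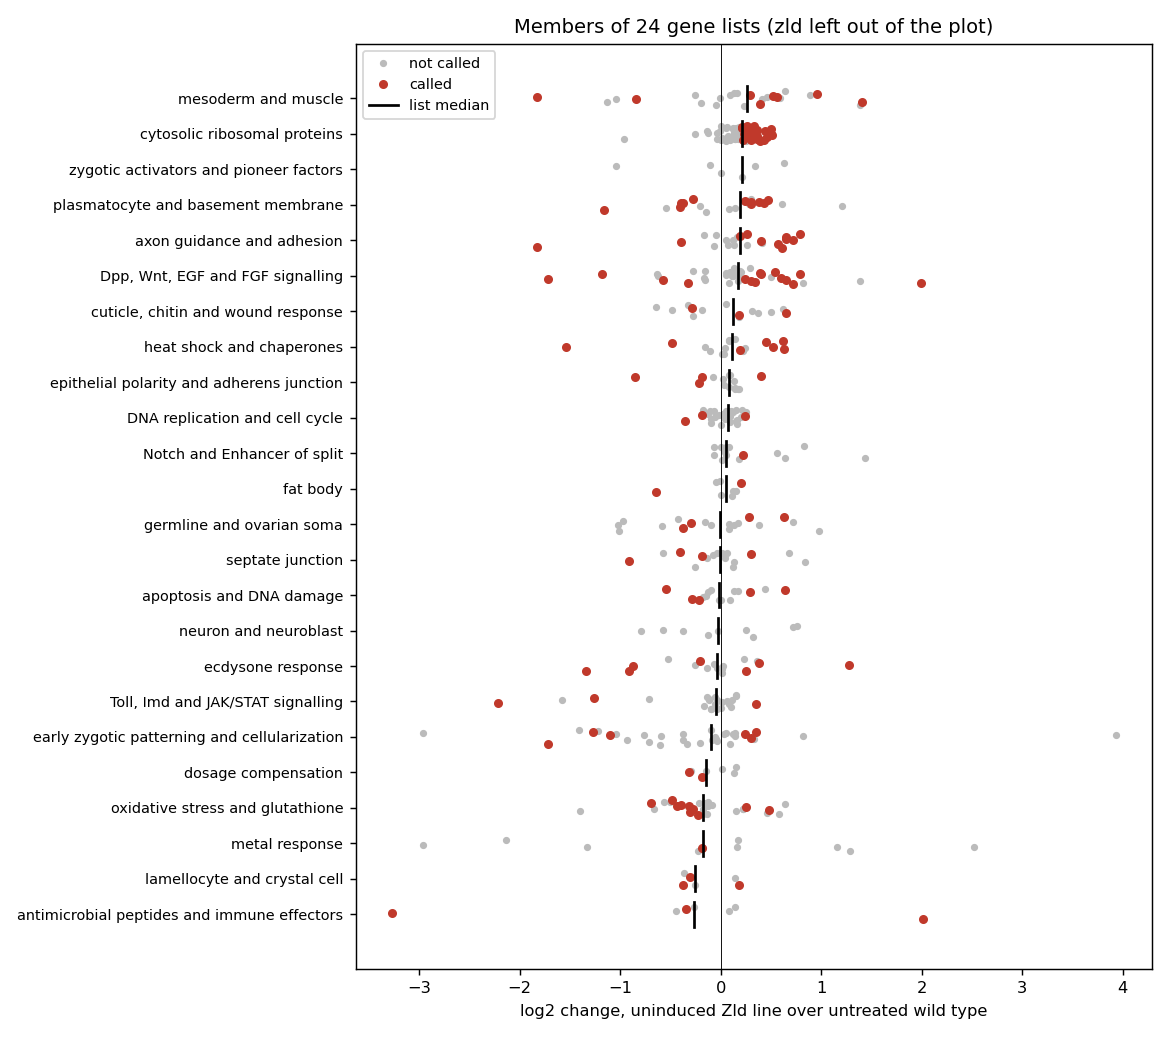
Log2 change of the uninduced Zld line over untreated wild type for each tested member of 24 gene lists, with called members in red, others in grey and a black bar at each list's median (zld is left out). Called members lie on both sides of 0 in most lists, and the bars stay between about -0.3 and 0.3. The list of Y chromosome genes, with 1 tested gene (-0.92), is not drawn.

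Gene length moved with the calls. Of tested genes with summed exons of up to 500 bases, 3.95% were higher in the uninduced Zld line, and the share was 5.22% from 1000 to 2000 bases, 19.4% from 4000 to 6000 bases and 36.0% above 12000 bases. The share of lower genes was 3.62% up to 500 bases, 11.7% from 1000 to 2000 and 11.5% above 12000. Across the 8881 genes, which are not independent replicates and share the same libraries, Spearman's correlation of length and log2 change was 0.116. The median length was 6791 bases for the axon guidance list and 2056 bases for all tested genes. Among other lists it was 5873.5 bases for plasmatocyte and basement membrane, 5342.5 for mesoderm and muscle and 5306 for ecdysone response. For Dpp, Wnt, EGF and FGF signalling it was 4013, for heat shock and chaperones 2361 and for cytosolic ribosomal proteins 909.5. The part of length in the counts of these lists was not tested.

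Chromosome 4 stood apart from the other arms, by an amount that 1 library decided. Of its 81 tested genes, with a median length of 3720 bases, 19 were higher (23.5%) and 0 lower by edgeR. Over all tested genes 10.4% were higher and 10.2% lower, and over those of 3000 to 4000 bases 12.7% and 9.74%. The median change on chromosome 4 was 0.34, whereas the medians of the other arms lay between -0.08 on the X and 0.02 on 2R. Against the uninduced Grh line the median was 0.43. Without replicate 1 of the Zld line the median was 0.03, with 17 genes higher and 5 lower, and without replicate 2 it was 0.53, with 51 higher. There were 10 and 7 higher without WT replicate 1 and WT replicate 2. On the X, 99 of 1509 genes (6.56%) were higher and 242 (16.0%) lower.

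**Figure D5:**
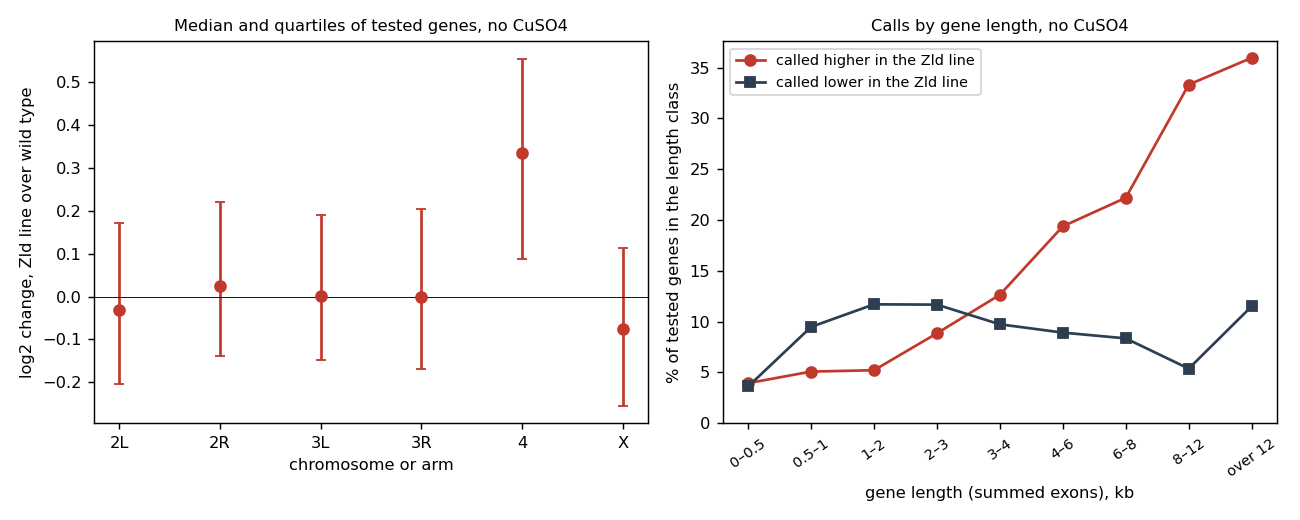
Left, median and quartiles of the log2 change of the uninduced Zld line over untreated wild type for the tested genes of each chromosome arm, with chromosome 4 at 0.34. Right, percent of tested genes called higher (red circles) and lower (dark blue squares) by summed exon length in kb, where the share of higher genes climbs from 3.95% in the shortest class to 36.0% in the longest.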

How the data were processed

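The authors deposited read counts per gene, whole numbers without normalization, in 1 table per factor; untreated wild type is identical in 3 tables. The submitters' processing notes name HISAT2 2.1.0, featureCounts, Subread 2.0, DESeq2 and the dm6 build. The annotation release and strand setting are not given in the sources used here. The other deposited value is gene length in bases, used for length classes and equal to the annotation for 99.9% of the 17561 matched of 17609 genes.

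Counts were analysed in edgeR 4.0.16 under R 4.3.3, with filterByExpr, TMM factors and the two-sided robust quasi-likelihood F test. P-values were adjusted by Benjamini-Hochberg across every gene tested, and calls have an adjusted p under 0.05. The first fit holds 8 libraries in 4 groups, and the comparison with the Grh line 14 libraries. SE is the log2 change divided by the root of F. On simulated counts for 8626 genes, the first fit called 75.8% of genes changed 2-fold and 92.9% of those changed 4-fold, and 16 of its 182 calls were unchanged genes. The simulation gave each gene the same spread in all groups. In the data the uninduced Zld replicates differed more (chi-square per degree of freedom 14.5, against 3.72 in untreated wild type), so these figures need not hold for this comparison. CPM is scaled by library size alone. Reads carry no molecular identifiers, so floors (3 counts) and 95% intervals cover counting error only.

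The named genes are zld, the 12 largest increases and 12 largest decreases among called genes with no overlap between groups and a mean of at least 1 CPM, the 12 largest increases with copper by the same rule, and for each list up to 5 called members with the largest change or, with none called, its highest expressed one. Chosen after their values were seen were grh, twi, the markers Mhc, Act57B, PPO2, PPO3, ItgaPS4, Pxn and srp, MtnA and MtnB, the further list members robo1, robo2, sty, Alk, Sxl, Sod1, GstE6, LanB2, trol, Col4a1, Ppn, SPARC, Ndg, crq, drpr and Hml, and the genes of the last section. The 25 lists have 632 entries, of which 629 matched and 3 are not used here. The markers NimC1 and Nplp2 were also chosen after their values were seen. The members and lists were chosen with earlier results of these data known. Alternatives were RLE size factors, DESeq2 1.42.0, no filter, a mean of at least 5 CPM, all 18 libraries, only the 4 compared, a replicate block and leaving out each library.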

Additional observations from a re-analysis of the deposited data

Results flagged for a closer look

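For 18 of the named genes the difference between the Zld line and wild type itself differed with and without copper, by the interaction test of edgeR (adjusted p under 0.05). Values are log2 of the change with copper over the change without, and a positive one means that the Zld line stood higher over wild type with copper. The genes chosen as the largest changes without copper, like those chosen as the largest increases with it, were picked on 1 side of this contrast, so their values are descriptions. Among genes higher without copper the interaction was 7.10 for zld, 4.90 for zye, -2.14 for Sgs1, -1.92 for aos and -1.88 for CG34437. Among genes lower without copper it was 2.85 for CG8620, 3.93 for sano, 2.72 for CG14196, 4.95 for CG13024 and 2.27 for upd2.

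Among the genes chosen as the largest increases with copper it was 7.74 for Dtg, 7.03 for Obp99a, 6.91 for Phk-3, 6.47 for Cyp305a1, 6.36 for babos, 5.84 for CG7320 and 5.30 for tld. The fitted value of 12.38 for CG13872 rests on groups with 0 counts and depends on the prior count, so it is no measure of size. Leaving out each of the 8 libraries in turn, the call was lost for zld without either library of wild type with 1000 µM or of the uninduced Zld line. It was lost for Sgs1 in 4, CG7320 in 5, CG13872 in 2 and tld and CG34437 in 1 of the 8 such fits.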

How the results depend on the processing

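Called genes numbered 1837 for the uninduced Zld line against untreated wild type, 1300 with DESeq2, 1361 with all 18 libraries and 927 with only the 4 libraries compared; leaving out each library in turn gave 782 to 2729. With copper there were 3423 calls and 2104 to 2775 without each library in turn. The interaction of line and copper had 1110 calls and 593 to 2000 without each library. Against the uninduced Grh line there were 1965 calls, 1236 with all 18 libraries, 758 with only the 4 compared, and 1165 to 2753 without each library. A fit with 1 library left in a group assumes that it varies like the other groups.

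The replicate numbers are shared between groups, but the labels do not say that a number marks a culture or day. Deviations of same-numbered libraries correlated at 0.312 between the uninduced Zld line and untreated wild type, -0.164 between the 2 uninduced lines and 0.0508 with copper, over 2 pairs each. With the replicate block the counts were 1734 without copper, 3331 with copper, 998 for the interaction and 1870 against the Grh line. With the block on only the 4 libraries it was 2071, and with crossed numbers of the Grh line 1898; both fits were added after seeing the data. The block changed no call of the 34 named genes. Of these 34 genes, none changed its call or direction in the first comparison with RLE size factors, DESeq2, no filter or all 18 libraries, and 14 of them could be tested at a mean of at least 5 CPM, with no change. No called value of a named gene changed sign; the uncalled changes of Obp99a, Dtg, Cyp305a1 and CG7320 without copper did so when 1 library was left out. With no filter, 1050 genes were higher and 1165 lower in the first comparison.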

Other observations

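Among long genes, 3 chosen after their values were seen stood high in the uninduced Zld line. The transcriptional corepressor gene spen had 196 and 172 CPM in the uninduced Zld line, against 71.7 and 53.4 CPM in untreated wild type (1.64 ± 0.12), and 53.3 and 73.4 CPM in the uninduced Grh line. Imp, which encodes an mRNA-binding protein, had 201 and 168 CPM in the Zld line, against 73.8 and 72.1 CPM in wild type (1.42 ± 0.07). The replication checkpoint gene Claspin had 75.8 and 67.9 CPM in the Zld line, against 29.4 and 27.6 CPM in wild type (1.42 ± 0.09). All 3 were also called with copper, at 1.35 ± 0.12, 0.91 ± 0.07 and 0.55 ± 0.09.

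The 2 uninduced Zld libraries stood apart from each other in Ldh and Gpo1, also chosen after their values were seen. The lactate dehydrogenase gene Ldh had 120 and 200 CPM in the Zld line, against 174 and 204 CPM in wild type. The glycerophosphate oxidase gene Gpo1 had 12.3 and 20.9 CPM in the Zld line, against 21.5 and 23.1 CPM in wild type. In both, replicate 1 of the Zld line was the lowest of the 4 libraries, and neither was called.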
